A study of Mus musculus with 9 samples.

Results

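The enzymes described here dispose of superoxide and of the peroxides made from it. They are 10 genes picked by symbol: the superoxide dismutases Sod1, Sod2 and Sod3, catalase (Cat), the glutathione peroxidases Gpx1 and Gpx4, the peroxiredoxins Prdx1 and Prdx5, thioredoxin (Txn1) and thioredoxin reductase (Txnrd1). They are 10 of the 42454 genes in the deposited table, and all 10 were among the 14404 genes expressed highly enough to be tested (at least 10 normalized counts in at least 3 of the 9 libraries). RNA was sequenced as read pairs. The cells were Ly6C low, MHC-II+ macrophages, sorted from lamina propria of the colon at an age of 6 weeks. The 3 groups were WT, p47phox-/- and gp91phox-/-, with 3 libraries each. The p47phox-/- mice lack the cytosolic organiser subunit of the phagocyte NADPH oxidase (gene Ncf1), and the gp91phox-/- mice lack its membrane-bound catalytic subunit (gene Cybb). The question is whether scavenging enzymes are adjusted in cells whose own superoxide source is disabled. The labels name no strain, sex, littermate status or separate animals, so each p-value refers to library spread alone, which may be technical.

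The phagocyte oxidase passes electrons from NADPH to oxygen and so makes superoxide. Superoxide dismutases turn superoxide into hydrogen peroxide: Sod1 in the cytosol, Sod2 in the mitochondrial matrix and Sod3 outside the cell. Catalase breaks hydrogen peroxide down directly in peroxisomes, glutathione peroxidases reduce it with glutathione, and peroxiredoxins reduce it with electrons that thioredoxin and thioredoxin reductase take from NADPH. Tissue macrophages hold these enzymes both for their own metabolism and against the oxidants that they release.

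Of the 10 enzymes, 3 are selenoproteins, whose catalytic selenocysteine is encoded by an in-frame TGA that is read through during translation. That codon is shown because it sets Gpx1, Gpx4 and Txnrd1 apart from the other 7 enzymes and links them to the selenoprotein synthesis genes counted further on. Each line gives the coding strand 5′ to 3′ with the selenocysteine codon in capitals and up to 15 coding bases on each side, from GENCODE transcripts on GRCm38 (the build also called mm10).
Gpx1 codon 47 of 201, chr9:108339451-108339453, plus strand: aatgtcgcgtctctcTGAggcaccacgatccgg
Gpx4 codon 129 of 253, chr10:80054737-80054739, plus strand: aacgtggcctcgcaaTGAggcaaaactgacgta
Txnrd1 codon 498 of 499, chr10:82896037-82896039, plus strand: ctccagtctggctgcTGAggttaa
In Gpx1 and Gpx4 the codon lies inside the reading frame, whereas in Txnrd1 it is the last codon but one and only a glycine codon and the stop codon follow. Codon numbers follow the transcript used for each gene and can differ in its other transcripts. That of Gpx4 has the longest coding sequence annotated for the gene, 759 bases.

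Several of these genes are textbook targets of NRF2, the transcription factor encoded by Nfe2l2, which binds antioxidant response elements. The core letters TGACNNNGC were searched on both strands of the RefSeq promoter windows of GRCm38.p6, which run from 250 bases before to 50 bases after each transcription start. Windows existed for 9 of the 10 enzymes (14 windows, none for Sod3), and 3 of the 14 held a match, in Prdx1, Txnrd1 and Sod1. Across all genes 12.4% of 32851 windows held one. The matched stretches are shown with the 9 matching letters in capitals. They lie on the strand opposite to the one printed, so that the core reads here in reverse complement, and coordinates are those of the printed bases.
Prdx1, chr4:116685441-116685499, plus strand: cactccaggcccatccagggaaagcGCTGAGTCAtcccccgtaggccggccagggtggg
Txnrd1, chr10:82859089-82859147, plus strand: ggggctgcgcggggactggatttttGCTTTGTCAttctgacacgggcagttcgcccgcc
Sod1, chr16:90220681-90220739, plus strand: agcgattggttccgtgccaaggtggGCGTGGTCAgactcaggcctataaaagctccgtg
The first matching base lay at -133 in Prdx1, -92 in Txnrd1 and -56 in Sod1 relative to the transcription start of the window. The Txnrd1 window, chr10:82858956-82859255, lies inside the gene, and the windows of the other Txnrd1 starts held no match. The match in Prdx1 also contains the letters TGAGTCA, which are those of an AP-1 site. A match is only a match of letters, and binding was not measured.

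Recovered reads per library ranged from 31141107 to 52797368. The targeted gene of the p47phox-/- mice was checked first: Ncf1 was at 10066, 8989.8 and 10815 normalized counts in WT, at 2718, 3733 and 3133 in p47phox-/-, and at 13618, 12136 and 13365 in gp91phox-/-. Its fall in p47phox-/- (log2 fold change -1.65, limma adjusted p = 0.000348) matched the labels. The reads that remained there do not say whether the transcript was intact. Cybb was listed at 0 in all 9 libraries, WT included, so the table gives no such check for gp91phox-/-. All 10 macrophage markers were at 10 or more normalized counts in every library, with a summed level of 324641 to 552263. Single markers differed between the genotypes: the fractalkine receptor gene Cx3cr1 was at 4059.8 to 5542 in WT, at 598, 5056 and 899 in p47phox-/-, and at 14746 to 24878 in gp91phox-/-, and Cd163 at 10011 to 11865, 15411 to 26969 and 15693 to 18867. Their part in the enzyme values was not tested. B cell markers summed to 11297 to 18740 in WT, 9603 to 16029 in p47phox-/- and 1523 to 2075 in gp91phox-/-. The p47phox-/- replicates 2 and 3 had the fewest genes detected, 14323 and 14268 against 15825 to 18760 in the other 7 libraries, and results that rest on them are given without them below.

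No scavenging enzyme passed the test in either knockout against WT. With limma (adjusted p under 0.05 over all 14404 genes), 0 of the 10 were called in p47phox-/- against WT, where 1.12% of all genes were called, and 0 of the 10 in gp91phox-/- against WT, where 7.05% were (2.53% higher, 4.53% lower). At an unadjusted p under 0.05 the counts were 0 and 3 (Sod2, Gpx4 and Prdx5, all with the higher mean in gp91phox-/-), and edgeR and DESeq2 on the recovered reads also called 0 and 0. For the mean of both knockouts against WT, limma, edgeR and DESeq2 each called 0 of 10, where limma called 3.14% of all genes. The 1 enzyme at an unadjusted p under 0.05 there was Gpx4, with a log2 fold change of 0.37 (95% interval 0.01 to 0.72, adjusted p = 0.28), or 0.24 without p47phox-/- replicate 2. Between the knockouts, 1 of 10 was called, Sod2, where 9.93% of all genes were (3.97% higher in gp91phox-/-, 5.96% lower), and 3 of 10 had an unadjusted p under 0.05 (Sod2, Sod3 and Prdx5).

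The sizes of the differences were small. Against WT, the log2 fold changes of the 10 enzymes ran from -0.18 to 0.37 in p47phox-/- and from -0.39 to 0.45 in gp91phox-/-. Their median absolute log2 fold change was 0.17 in p47phox-/- and 0.23 in gp91phox-/-, beside 0.28 and 0.32 over all genes tested. The 95% interval reached a median of 0.38 to each side of an enzyme's log2 fold change, beside 0.53 over all genes tested, so smaller changes were often not detectable with 3 libraries a group. The 2 comparisons share the WT libraries.

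**Figure D1:**
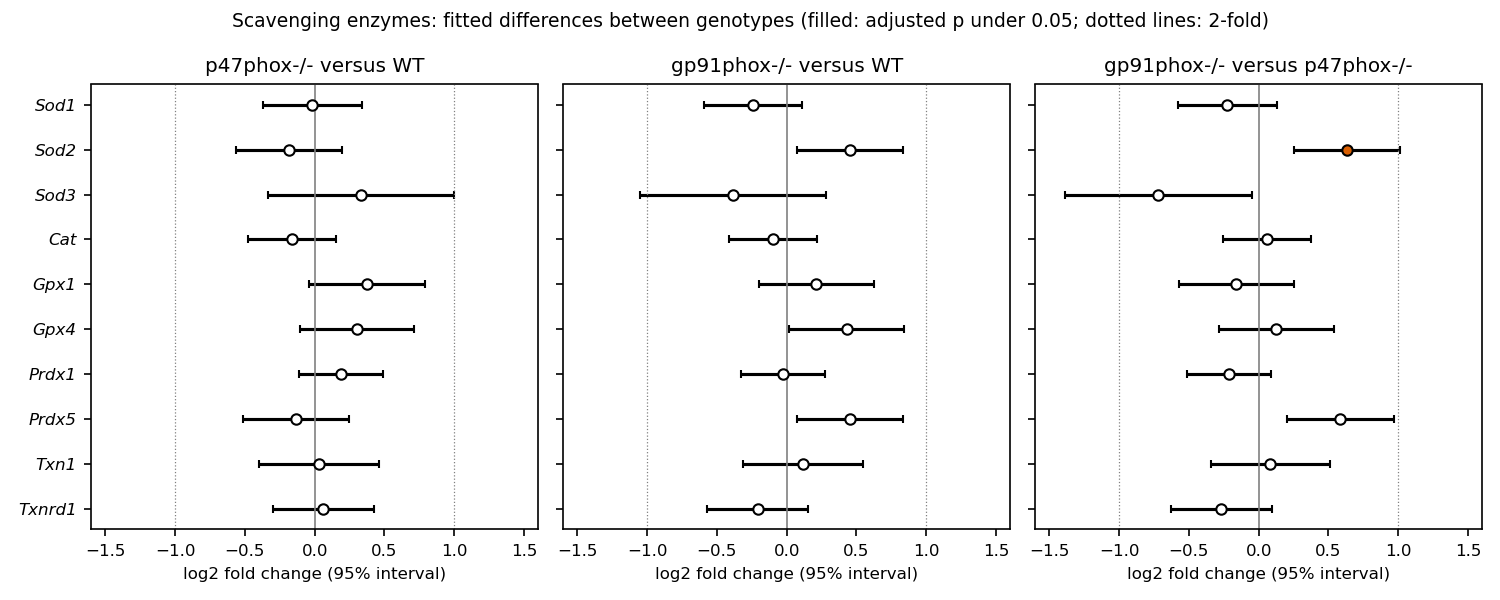
Log2 fold change (x axis) of each of the 10 scavenging enzymes (y axis) in the comparisons of p47phox-/- with WT, gp91phox-/- with WT and gp91phox-/- with p47phox-/-, with bars for the 95% confidence intervals from the limma fit. The intervals of all 10 enzymes include 0 in p47phox-/- against WT, and Sod2, Prdx5 and Sod3 lie farthest from 0 between the knockouts.

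Sod1 (chr16:90220754-90226329, plus strand), the copper and zinc enzyme of the cytosol, was at 3636, 4052 and 3596 normalized counts in WT, 3012, 4904 and 3469.7 in p47phox-/-, and 3058, 3209 and 3276 in gp91phox-/-. The gp91phox-/- libraries all lay below the WT libraries, and those of p47phox-/- lay on both sides of them. Its log2 fold change was -0.02 in p47phox-/- (95% interval -0.37 to 0.34, adjusted p = 0.975) and -0.24 in gp91phox-/- (-0.59 to 0.11, adjusted p = 0.442). The value in p47phox-/- was -0.22 without replicate 2.

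Sod2 (chr17:13006846-13040063, plus strand), the manganese enzyme of mitochondria and a textbook target of NF-kB, was the 1 enzyme of the 10 that passed the test between the knockouts. It was at 6241, 6689 and 6030.4 normalized counts in WT, 6249.6, 5215 and 5275 in p47phox-/-, and 6535, 8769.8 and 11246 in gp91phox-/-. The 3 gp91phox-/- libraries lay above the 3 p47phox-/- libraries but spread widely (8850 ± 2357, SD, n = 3), and the lowest of them lay within the WT range. Sod2 was 1.55-fold higher in gp91phox-/- than in p47phox-/- (log2 fold change 0.64, SE 0.17, fold interval 1.19 to 2.02, limma adjusted p = 0.0385, higher in 3 of 3 libraries). Against WT the log2 fold change was -0.18 in p47phox-/- (-0.56 to 0.20, adjusted p = 0.655) and 0.45 in gp91phox-/- (0.07 to 0.83, adjusted p = 0.151).

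The Sod2 call between the knockouts held in 7 of 19 alternative settings and ended in 12, with adjusted p from 0.0025 to 0.384. Its log2 fold change stayed between 0.45 and 0.84 in all 19. The call ended without p47phox-/- replicate 2 (adjusted p = 0.0828) or 3 (0.109), without both (0.384), without gp91phox-/- replicate 2 (0.113) or 3 (0.143), and without WT replicate 1 (0.0594), 2 (0.0503) or 3 (0.0588). The last 3 change no library of the comparison, only the shared estimate of the spread. The other settings that ended the call were no filter on low values, the groups compared alone, the replicate block and no mean-variance trend. Without gp91phox-/- replicate 1, Sod2 was also called against WT (0.65, adjusted p = 0.0293), and without gp91phox-/- replicate 3 its log2 fold change against WT was 0.26 (adjusted p = 0.468).

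Sod3 (chr5:52363791-52371418, plus strand), the secreted enzyme, which fibroblasts and smooth muscle express more than macrophages do, was the least abundant of the 10. It was at 174.8, 94.7 and 118.9 normalized counts in WT, 129.3, 172.3 and 177.2 in p47phox-/-, and 91.0, 87.5 and 110.0 in gp91phox-/-. All gp91phox-/- libraries lay below all p47phox-/- libraries, and the WT libraries spanned both. The log2 fold change was 0.33 in p47phox-/- (-0.34 to 1.00, adjusted p = 0.645), -0.39 in gp91phox-/- (-1.05 to 0.28, adjusted p = 0.525) and -0.72 between the knockouts (-1.39 to -0.05, adjusted p = 0.161). The WT libraries moved these values: without WT replicate 1 they were 0.57 in p47phox-/- and -0.15 in gp91phox-/-, and without WT replicate 2 they were 0.13 and -0.59. Without p47phox-/- replicates 2 and 3 the first was 0.04 and the difference between the knockouts was -0.43. Summed fibroblast and smooth muscle markers ranged from 6346 to 8438 in WT, 10675 to 17407 in p47phox-/- and 9288 to 11181 in gp91phox-/-. All 8 of them had a higher mean in p47phox-/- than in WT, and 6 of 8 had a higher mean in gp91phox-/- than in WT, where Sod3 had a lower one. Between the knockouts, 0 of 8 had a higher mean in gp91phox-/- than in p47phox-/-, and none was at 0. Their part in the Sod3 levels was not tested, and in these bulk samples fewer cells of a type and less RNA per cell cannot be told apart.

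**Figure D2:**
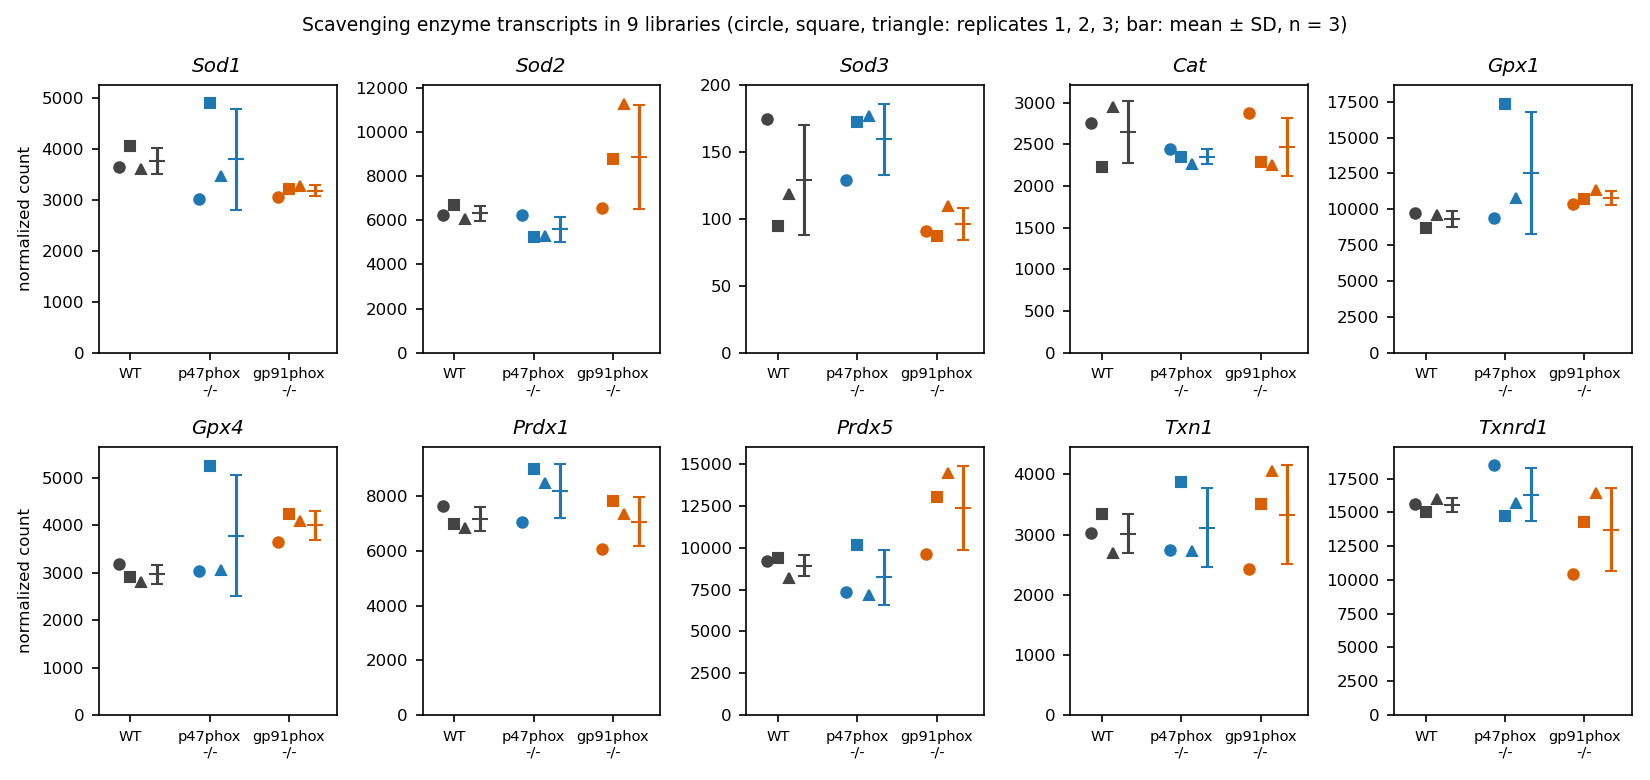
Normalized counts (y axes, starting at 0) of each of the 10 scavenging enzymes in every library, by genotype (x axes), with the group mean and SD marked. For Sod2 and Prdx5 the gp91phox-/- libraries spread upward (to 11246 and 14490.5), whereas for Sod1, Gpx1 and Gpx4 the highest point is p47phox-/- replicate 2.

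Cat (chr2:103453849-103485160, minus strand), which splits hydrogen peroxide into water and oxygen, was at 2755, 2229 and 2952 normalized counts in WT, 2442, 2349 and 2263 in p47phox-/-, and 2873, 2286 and 2248 in gp91phox-/-. The groups overlapped in every comparison, and the highest library was only 1.32-fold above the lowest, the smallest range among the 10. Cat had a log2 fold change of -0.16 in p47phox-/- (-0.48 to 0.15, adjusted p = 0.633) and -0.10 in gp91phox-/- (-0.41 to 0.22, adjusted p = 0.758). The first was -0.28 without WT replicate 2 and -0.08 without WT replicate 3. These intervals exclude a 1.5-fold rise or fall of Cat in either knockout (fold 0.719 to 1.11 and 0.751 to 1.16).

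Gpx1 (chr9:108338903-108340343, plus strand), the cytosolic glutathione peroxidase that clears most hydrogen peroxide in many cells, was at 9726, 8678 and 9588 normalized counts in WT, 9394, 17356 and 10819.8 in p47phox-/-, and 10382, 10699.9 and 11355 in gp91phox-/-. The gp91phox-/- libraries all lay above the WT libraries, and the p47phox-/- mean rested on replicate 2. Its log2 fold change was 0.37 in p47phox-/- (-0.04 to 0.79, adjusted p = 0.374) and 0.21 in gp91phox-/- (-0.20 to 0.63, adjusted p = 0.576). Without p47phox-/- replicate 2 the first of these was 0.11.

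Gpx4 (chr10:80047166-80056439, plus strand) reduces lipid peroxides in membranes and is the enzyme that restrains ferroptosis. It was at 3194, 2908 and 2805 normalized counts in WT, 3036, 5255 and 3071 in p47phox-/-, and 3661, 4242 and 4099 in gp91phox-/-. Again all gp91phox-/- libraries exceeded all WT libraries, and p47phox-/- replicate 2 stood above its group. Gpx4 had a log2 fold change of 0.30 in p47phox-/- (-0.11 to 0.71, adjusted p = 0.469), or 0.04 without replicate 2, and 0.43 in gp91phox-/- (0.02 to 0.84, adjusted p = 0.209). In gp91phox-/- against WT, Gpx4 was called in 3 of the alternatives, each of which leaves p47phox-/- libraries out of the estimate of the spread: with the groups compared alone (adjusted p = 0.0424), without p47phox-/- replicate 2 (0.0291) and without its replicates 2 and 3 (0.0427).

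Prdx1 (chr4:116685544-116700822, plus strand), the abundant cytosolic peroxiredoxin, was at 7653, 6986 and 6820.4 normalized counts in WT, 7067, 8992 and 8480.0 in p47phox-/-, and 6064, 7805 and 7329.8 in gp91phox-/-. The 3 groups overlapped. The log2 fold change was 0.19 in p47phox-/- (-0.11 to 0.49, adjusted p = 0.545) and -0.02 in gp91phox-/- (-0.32 to 0.28, adjusted p = 0.951), and the sign of the latter turned under 3 other scalings or count models.

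Prdx5 (chr19:6906697-6910106, minus strand), a peroxiredoxin found in mitochondria, peroxisomes and cytosol that also reduces peroxynitrite, had a pattern like that of Sod2. It was at 9208, 9376 and 8217 normalized counts in WT, 7357, 10153 and 7204 in p47phox-/-, and 9627, 13023 and 14490.5 in gp91phox-/-. The gp91phox-/- libraries lay above all WT libraries, and 1 of them lay below p47phox-/- replicate 2. The log2 fold change was -0.13 in p47phox-/- (-0.51 to 0.25, adjusted p = 0.757) and 0.45 in gp91phox-/- (0.07 to 0.83, adjusted p = 0.153). The first ranged from -0.29 without p47phox-/- replicate 2 to -0.05 without its replicate 3. Between the knockouts it was 0.59 (0.20 to 0.97, limma adjusted p = 0.0547), which narrowly missed the threshold. It passed in 5 of 19 alternatives, among them edgeR (adjusted p = 0.0473), DESeq2 (0.00771), and the fit without p47phox-/- replicate 2 (0.0187), with adjusted p up to 0.192 over all 19.

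The exons of Prdx5 share 409 bases (19.1% of its exon bases) with Trmt112 on the opposite strand. The sources used here do not say whether counting used strand, so reads in that stretch cannot be told apart. Trmt112, which encodes a methyltransferase cofactor, was at 1279 ± 173 normalized counts in WT, 1609 ± 317 in p47phox-/- and 1295 ± 42.5 in gp91phox-/- (SD, n = 3). The part of the overlap in the Prdx5 values was not tested.

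Txn1 (chr4:57943373-57956411, minus strand), the cytosolic thioredoxin that recharges peroxiredoxins, was at 3028, 3336 and 2689 normalized counts in WT, 2749.7, 3879 and 2723 in p47phox-/-, and 2435, 3501 and 4065 in gp91phox-/-. The gp91phox-/- libraries held both the lowest and the highest value. Txn1 had a log2 fold change of 0.03 in p47phox-/- (-0.40 to 0.46, adjusted p = 0.958) and 0.12 in gp91phox-/- (-0.31 to 0.55, adjusted p = 0.796). The first was -0.14 without p47phox-/- replicate 2, and the second was 0.33 without gp91phox-/- replicate 1 and -0.04 without its replicate 3.

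Txnrd1 (chr10:82833951-82897712, plus strand), the cytosolic selenoenzyme that reduces thioredoxin with NADPH, was at 15639 normalized counts, 14993 and 15989 in WT, 18502, 14703 and 15707 in p47phox-/-, and 10403, 14286 and 16439.7 in gp91phox-/-. WT libraries lay close together, and gp91phox-/- replicate 1 was the lowest of all 9. The log2 fold change was 0.06 in p47phox-/- (-0.30 to 0.42, adjusted p = 0.893) and -0.21 in gp91phox-/- (-0.57 to 0.16, adjusted p = 0.532). The latter was -0.02 without gp91phox-/- replicate 1 and -0.35 without replicate 3.

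Reads of Sod1, Gpx4, Prdx1 and Txn1 could also be shared with annotated near-identical copies (at least 95% identity over at least 200 bases: 1, 2, 2 and 1 genes). Those copies were not analysed here, so the levels of these 4 are uncertain to that extent.

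Counting libraries that do not overlap, 0 of the 10 enzymes were apart between p47phox-/- and WT, where 17.7% of all genes were. Between gp91phox-/- and WT 4 of 10 were apart (Sod1 lower, and Gpx1, Gpx4 and Prdx5 higher), where 33.3% of all genes were. Between the knockouts 2 of 10 were apart (Sod2 higher and Sod3 lower in gp91phox-/-), where 30.9% of all genes were. With 10 genes, nothing particular to the enzymes is read from these counts.

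Single libraries shaped much of the spread. The p47phox-/- replicate 2 held the highest value of the 9 libraries for 4 enzymes (Sod1, Gpx1, Gpx4 and Prdx1), gp91phox-/- replicate 3 for 3 (Sod2, Prdx5 and Txn1), and gp91phox-/- replicate 1 the lowest for 3 (Prdx1, Txn1 and Txnrd1). In p47phox-/- replicate 2, genes with a coding length of at most 900 bases (3478 genes, not counting the 8 enzymes that are as short) had a median deviation of 0.22 on the log2 scale from their mean over the 9 libraries, and the 9264 longer genes -0.06. The difference of 0.29 was the largest of the 9 libraries, the others lying between -0.17 and 0.09, and the 8 short enzymes had a median deviation of 0.39 there. The same library had the highest sum of erythroid markers, 551 normalized counts against 24.9 to 194 in the other 8, while the erythroid genes Alas2 and Slc4a1 were listed at 0 in all 9. The part of short genes or erythroid RNA in the enzyme values was not tested. Without that library, the log2 fold changes of Sod1, Gpx1, Gpx4 and Prdx1 in p47phox-/- against WT were -0.22, 0.11, 0.04 and 0.12.

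**Figure D3:**
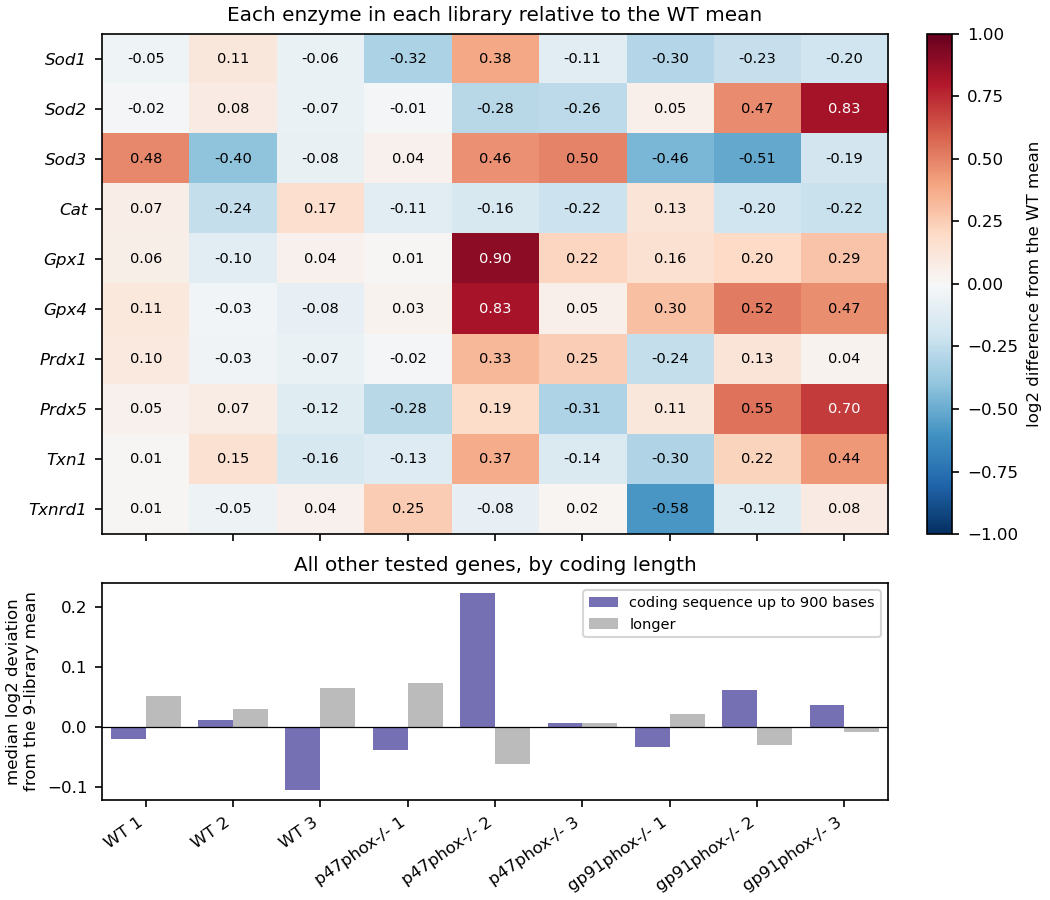
Upper panel: log2 difference of each scavenging enzyme (rows) in each of the 9 libraries (columns) from its WT mean, as a colour and a number; lower panel: median log2 deviation (y axis) of other genes with a coding length up to 900 bases and of longer ones from their 9-library mean, as bars. The p47phox-/- replicate 2 column is high for Sod1, Gpx1, Gpx4 and Prdx1, and the gp91phox-/- replicate 3 column for Sod2, Prdx5 and Txn1.

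Per kilobase of the longest principal transcript, the order of the levels in WT, from the highest, was Gpx1 (8704 ± 531 normalized counts per kilobase, SD, n = 3), Prdx5 (7079 ± 496), Sod1 (5868 ± 394), Txnrd1 (4401 ± 143), Prdx1 (3118 ± 192), Gpx4 (3096 ± 210), Txn1 (2871 ± 308), Sod2 (1078 ± 57.4), Cat (1012 ± 143) and Sod3 (34.6, with a coefficient of variation of 31.7%). Of neighbours in this order, Prdx1 and Gpx4 differed by less than the SD of either, and Gpx4 and Txn1, and Sod2 and Cat, by less than the larger of their SDs. The places of Prdx1 and Txnrd1 depend on the transcript, since their shortest principal transcripts gave 8156 and 6766 per kilobase. The place of Sod1 depends on the length used as well. Its annotated exons together span 3970 bases, against 641 in its principal transcript, and it would stand lower per kilobase of all exons. In WT macrophages, Gpx1 stood far above catalase per kilobase of the longest principal transcript. Cytosolic Sod1 stood above mitochondrial Sod2 on that scale, but this order also depends on the length used. The principal transcript of Sod2 has 5861 bases, and its longest coding sequence 666. By normalized counts Sod2 was above Sod1 in WT, with ratios of 1.72, 1.65 and 1.68.

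Ratios within a library compare enzymes that share a substrate or work in pairs. The ratio of Sod2 to Sod1 (normalized counts) was 1.72, 1.65 and 1.68 in WT, 2.07, 1.06 and 1.52 in p47phox-/-, and 2.14, 2.73 and 3.43 in gp91phox-/-. WT libraries were nearly alike, and each gp91phox-/- library exceeded every WT and p47phox-/- library. The ratio of Prdx5 to Prdx1 was 1.20, 1.34 and 1.20 in WT, 1.04, 1.13 and 0.85 in p47phox-/-, and 1.59, 1.67 and 1.98 in gp91phox-/-, with gp91phox-/- above and p47phox-/- below WT in every library. For the ratio of Cat to Gpx1, 4 of the 6 knockout libraries lay below all WT libraries: 0.283, 0.257 and 0.308 in WT, 0.26, 0.135 and 0.209 in p47phox-/-, and 0.277, 0.214 and 0.198 in gp91phox-/-.

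The planned test set the 6 knockout libraries against the 3 WT libraries (exact two-sided permutation test over the log2 ratios, 5 ratios, smallest p possible 0.0238). By this exact test, the log2 difference of knockouts from WT was 0.26 for Sod2 to Sod1 (p = 0.476, adjusted 0.685), -0.42 for Cat to Gpx1 (p = 0.0714, adjusted 0.357), 0.07 for Gpx4 to Gpx1 (p = 0.548, adjusted 0.685), 0.08 for Prdx5 to Prdx1 (p = 0.786, adjusted 0.786) and -0.15 for Txnrd1 to Txn1 (p = 0.548, adjusted 0.685). With single libraries left out, these differences ranged from 0.109 to 0.447 for Sod2 to Sod1 (lowest without gp91phox-/- replicate 3, highest without p47phox-/- replicate 2), and from -0.503 to -0.297 for Cat to Gpx1. The ranges were 0.0119 to 0.120 for Gpx4 to Gpx1 (lowest without WT replicate 3, highest without p47phox-/- replicate 3), -0.0394 to 0.204 for Prdx5 to Prdx1 (without gp91phox-/- replicate 3 and p47phox-/- replicate 3), and -0.252 to -0.0451 for Txnrd1 to Txn1 (without p47phox-/- replicate 1 and WT replicate 3). None passed after Benjamini-Hochberg adjustment over the 5 ratios. For Sod2 to Sod1 and Prdx5 to Prdx1, the knockouts lay on opposite sides of WT by their mean log2 ratios (0.58 in p47phox-/- and 1.44 in gp91phox-/- around 0.75 in WT, and -0.00067 and 0.80 around 0.32). Each knockout alone has 3 libraries against 3, for which no exact test can reach 0.05.

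**Figure D4:**
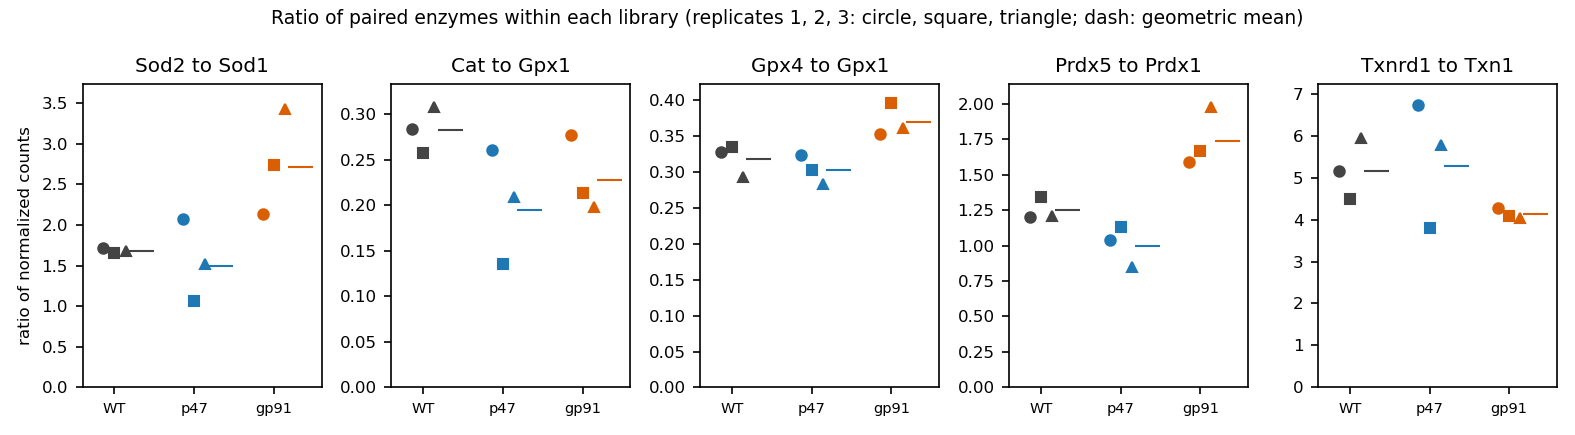
Ratio of normalized counts within each library for 5 enzyme pairs (y axes) by genotype (x axes, where p47 and gp91 stand for p47phox-/- and gp91phox-/-); each point is a library. The gp91phox-/- points lie above all others for Sod2 to Sod1 and for Prdx5 to Prdx1.

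The wider network that feeds and regulates the scavengers was described through 8 lists with 47 genes, of which 46 were tested (Prdx4 was listed at 0 in every library). In p47phox-/- against WT 0 of 46 were called by limma (background 1.12%; 6 at an unadjusted p under 0.05; edgeR 0; DESeq2 2, Gsr and Sesn2). In gp91phox-/- against WT 4 of 46 were called (8.7%, background 7.05%): Nfe2l2 and Slc31a1 rose (2.53% of all genes did), and Gclc and Txnrd3 fell (4.53% did). There edgeR called the same 4, and DESeq2 called 8, adding Keap1, Pgd, Prdx2 and Sesn1. Between the knockouts 7 of 46 were called (15.2%, background 9.93%): Nfe2l2 and Slc31a1 were higher in gp91phox-/-, as 3.97% of all genes were, and Gclc, Txnrd2, Txnrd3, Mt2 and Nnt were lower, as 5.96% were. The median log2 fold change of the 46 was 0.06 in p47phox-/- and -0.03 in gp91phox-/- against WT, beside -0.02 and 0.01 over all genes tested.

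Nfe2l2, which encodes NRF2, was at 12564, 10382 and 12521 normalized counts in WT, 12050.3, 12264 and 11793 in p47phox-/-, and 24843, 24858 and 23308 in gp91phox-/-. The gp91phox-/- libraries formed a group apart at about the same level, and the p47phox-/- libraries lay inside the WT range. It was 2.07-fold higher in gp91phox-/- than in WT (log2 fold change 1.05, SE 0.12, 95% interval 0.78 to 1.31, limma adjusted p = 0.000231) and 1.02 higher on the log2 scale than in p47phox-/- (adjusted p = 0.000338). Both calls held in all 19 alternatives. For the mean of both knockouts against WT limma and edgeR called it alone of the 46 (0.54, limma adjusted p = 0.0161), and DESeq2 called 5 (Gclc, Keap1, Nfe2l2, Pgd and Sesn2). The limma call ended with no mean-variance trend (0.0653), without WT replicate 2 (0.0812) or 3 (0.0546) or without p47phox-/- replicates 2 and 3 (0.0664). Of the list of NRF2 regulation and sentinel targets (Nfe2l2, Keap1, Bach1, Nqo1 and Hmox1), limma and edgeR called 1 of 5 in gp91phox-/- against WT, Nfe2l2 itself, and DESeq2 called 2, adding Keap1, which encodes the NRF2 repressor. The log2 fold changes of the list by limma ran from -0.55 to 1.05, with a median of -0.0024 that mixes both directions. Their median absolute value was 0.55, beside 0.32 over all genes tested. Of the 5 genes, 3 had an unadjusted limma p under 0.05, as had 3127 of all 14404. In gp91phox-/- against WT limma called none of the 10 enzymes, among them Prdx1, Txnrd1 and Sod1, each with a window that held the response element letters. NRF2 protein is controlled mainly through its degradation by KEAP1, which RNA does not measure.

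Gclc, the catalytic subunit of the enzyme that limits glutathione synthesis, was at 1757, 1812 and 1808 normalized counts in WT, 1823, 1771 and 1678 in p47phox-/-, and 1267, 1133 and 1145 in gp91phox-/-. It fell in gp91phox-/- against WT (log2 fold change -0.60, adjusted p = 0.00907) and was lower than in p47phox-/- (-0.57, adjusted p = 0.00999), with no overlap of libraries. The first call held in 18 of 19 alternatives and ended without gp91phox-/- replicate 2 (adjusted p = 0.0528). The second held in 17 and ended without the same library (0.0517) or without p47phox-/- replicates 2 and 3 (0.0709). Of the 4 genes of glutathione synthesis and reduction, limma and edgeR called Gclc alone, and DESeq2 also called the reductase Gsr in p47phox-/- against WT.

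Slc31a1, the plasma membrane copper importer that supplies the metal of Sod1 and Sod3, was at 2642, 2559 and 2964 normalized counts in WT, 3132, 2530.3 and 2932 in p47phox-/-, and 3721, 4157 and 4407 in gp91phox-/-. It rose in gp91phox-/- against WT (0.59, adjusted p = 0.016) and was higher than in p47phox-/- (0.52, adjusted p = 0.0258). The call against WT held in 14 of 19 alternatives and ended with no mean-variance trend (0.0619). It also ended without WT replicate 1 (0.0624) or 2 (0.0636) and without gp91phox-/- replicate 2 (0.071) or 3 (0.0785). The call between the knockouts held in 12 and ended with the groups compared alone (0.0527) or no mean-variance trend (0.0735). It also ended without gp91phox-/- replicate 2 (0.0904) or 3 (0.106) and without p47phox-/- replicate 2 (0.0571), 3 (0.0611) or both (log2 fold change 0.38). The metallothionein Mt2, which binds zinc and copper, was at 2809, 2127 and 1879 in WT, 2299.8, 4054 and 3667 in p47phox-/-, and 1689.7, 1846 and 1053 in gp91phox-/-. It was lower in gp91phox-/- than in p47phox-/- (-1.13, adjusted p = 0.015, called in 15 of 19 alternatives). That call ended with no mean-variance trend (0.0755) and without gp91phox-/- replicate 3 or p47phox-/- replicate 3 (0.0568 each). It also ended without p47phox-/- replicates 2 and 3 (log2 fold change -0.63). Against WT, limma called Mt2 neither in gp91phox-/- (-0.59, 95% interval -1.14 to -0.04, adjusted p = 0.194) nor in p47phox-/- (0.54, -0.01 to 1.08, adjusted p = 0.34). Of the 5 genes of copper delivery and metal binding, 1 was called in gp91phox-/- against WT and 2 between the knockouts.

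Among the 10 other genes of the thioredoxin and glutaredoxin system, the 2 called were the other thioredoxin reductases. Txnrd3, the thioredoxin-glutathione reductase best known from testis, was at 271.8, 269.5 and 278.0 normalized counts in WT, 392, 298 and 276.3 in p47phox-/-, and 179, 124 and 118 in gp91phox-/-. It fell in gp91phox-/- against WT (-0.98, adjusted p = 0.0286, called in 13 of 19 alternatives) and was lower than in p47phox-/- (-1.20, adjusted p = 0.00832, called in all 19). The call against WT ended with quantile normalization (0.0509) and without any 1 of the WT replicates (0.076 to 0.0864). It also ended without gp91phox-/- replicate 2 (0.123) or 3 (0.115). Mitochondrial Txnrd2 was at 560.2, 512.5 and 532 in WT, 609, 657 and 723 in p47phox-/-, and 462, 424 and 412 in gp91phox-/-. It was lower in gp91phox-/- than in p47phox-/- (-0.61, adjusted p = 0.0278, called in 12 of 19 alternatives). That call ended with the groups compared alone (0.0568) or the replicate block (0.0562), and without gp91phox-/- replicate 1 (0.0541), 2 (0.1) or 3 (0.103). It also ended without p47phox-/- replicate 3 (0.0827) or 2 and 3 (log2 fold change -0.49). Against WT its log2 fold change by limma was -0.31 in gp91phox-/- (95% interval -0.64 to 0.03, adjusted p = 0.284) and 0.31 in p47phox-/- (-0.03 to 0.64, adjusted p = 0.374). Cytosolic Txnrd1, the most abundant reductase by normalized counts, was called in no comparison.

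Nnt, the mitochondrial transhydrogenase that makes NADPH in the matrix, was at 1087, 583 and 962 normalized counts in WT, 1655, 1315 and 1227 in p47phox-/-, and 821, 726 and 715 in gp91phox-/-. It was lower in gp91phox-/- than in p47phox-/- (-0.88, adjusted p = 0.0245, called in 14 of 19 alternatives). That call ended with no mean-variance trend (0.0828) and without gp91phox-/- replicate 2 (0.0819) or 3 (0.0794). It also ended without p47phox-/- replicate 1 (0.0672) or 2 and 3 (log2 fold change -1.14). Against WT, limma called Nnt neither in gp91phox-/- (-0.17, 95% interval -0.64 to 0.30, adjusted p = 0.712) nor in p47phox-/- (0.71, 0.24 to 1.18, adjusted p = 0.146). The larger of these 2 differences from WT was the rise in p47phox-/-. It was the 1 of 7 genes of NADPH supply called between the knockouts. None of the other peroxiredoxins and their repair enzymes (6 tested), the other glutathione peroxidases (4) or the genes of selenoprotein synthesis (5) was called by limma in any comparison. The most abundant gene of each list was Srxn1, which repairs overoxidised peroxiredoxins, Gpx3, the secreted glutathione peroxidase, and Secisbp2, which binds the element that makes TGA code for selenocysteine. Of those 3 lists the other glutathione peroxidases had the largest median log2 fold change in gp91phox-/- against WT, 1.05 over 4 genes. The list as a whole was poorly measured: the 95% interval reached a median of 1.65 to each side, beside 0.53 over all genes tested. The 1 of the 4 at an unadjusted p under 0.05 was Gpx3, whose interval was narrower (0.50, 95% interval 0.11 to 0.88, limma adjusted p = 0.118). The median of the list in p47phox-/- against WT was 0.56.

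B cell, plasma cell, T cell and dendritic cell marker sums were lower in gp91phox-/-: T cell markers summed to 502 to 1163 normalized counts in WT, 614 to 1123 in p47phox-/- and 100.1 to 173 in gp91phox-/-, and dendritic cell markers to 3556 to 6616, 4508 to 5822 and 1190.1 to 1844. Plasma cell markers (5) summed to 15933 to 31664 in WT, 13603 to 20187 in p47phox-/- and 8509 to 9472 in gp91phox-/-. Within the T cell list Cd2 and Lck were lower in all gp91phox-/- libraries than in all others and Thy1 overlapped, while Cd3d, Cd3e and Cd3g were between 0 and 29.0 normalized counts in every library. No gene of the B cell list (6), T cell list (6) or dendritic cell list (6) was at 0 in all libraries. Their part in the values of Nfe2l2, Gclc, Slc31a1 and Txnrd3 was not tested.

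**Figure D5:**
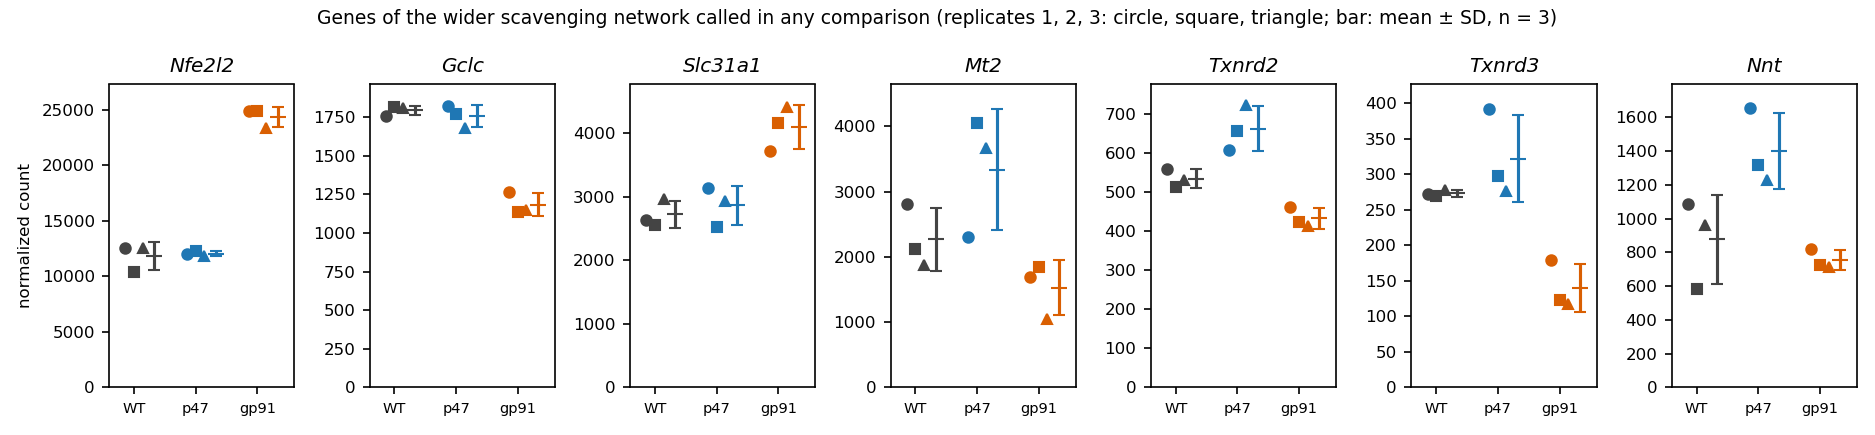
Normalized counts (y axes, starting at 0) in every library, by genotype (x axes, where p47 and gp91 stand for p47phox-/- and gp91phox-/-), of the genes of the wider scavenging network that were called in any comparison. Nfe2l2 in gp91phox-/- lies between 23308 and 24858, above the 10382 to 12564 of WT, and Gclc and Txnrd3 lie below WT.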

How the data were processed

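A Qiagen RNeasy kit was used for RNA, and paired-end reads were, per the labels' protocols, demultiplexed with bcl2fastq 2.19, trimmed with Cutadapt, aligned to mm10 with STAR 2.5.2b and counted with featureCounts. DESeq2 is named in the submitters' processing notes. Strand setting and gene annotation are not given in the sources used here. The authors deposited 1 table of normalized counts, a signal in which each read count is divided by a size factor of the library. Dividing by the step of low values gave whole reads for 100% of values (tolerance 0.01, size factors 1.05 to 1.66). All 9 columns matched a sample by name.

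The test took genes that reached 10 normalized counts in 3 or more libraries, on log2(normalized count + 1) with limma 3.58.1 (R 4.3.3): 1 fit of the 3 groups with a mean-variance trend, Benjamini-Hochberg adjustment over all 14404 genes, and calls at adjusted p under 0.05. Fold changes are on that scale, which understates those of low genes. edgeR 4.0.16 (quasi-likelihood) and DESeq2 1.42.0 on the recovered reads were alternatives, as were other pseudocounts, scalings, filters and designs and leaving out each library. Scripts were tested on simulated data. Ratios were tested with an exact permutation test (scipy 1.17.1).

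The 10 enzymes and all lists were chosen with earlier results of these data known. Named genes were the 10 enzymes, any gene of the 8 wider lists called in any comparison, otherwise the most abundant gene of a list, and the oxidase subunits; Trmt112, other genes called only by DESeq2 and marker genes are named beside the values they touch. A further marker gene is not reported here. Gene positions are from GENCODE on GRCm38, and promoters are from RefSeq (GRCm38.p6). WT 1 to 3, p47phox-/- 1 to 3 and gp91phox-/- 1 to 3 share numbers only: correlations of deviations between same-numbered libraries lay between -0.04 and 0.08.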

Additional observations from a re-analysis of the deposited data

Results flagged for a closer look

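The comparison of gp91phox-/- with p47phox-/- is also the test of whether their effects against the shared WT libraries differ. By limma 1 of the 10 scavenging enzymes differed, Sod2 (log2 difference 0.64, adjusted p = 0.0385), where 9.93% of all genes tested did. The Sod2 call ended in 12 of 19 alternatives. Of the 46 tested genes of the wider network 7 differed (15.2%): Nfe2l2 (1.02, adjusted p = 0.000338), Slc31a1 (0.52, 0.0258), Gclc (-0.57, 0.00999), Txnrd2 (-0.61, 0.0278), Txnrd3 (-1.20, 0.00832), Mt2 (-1.13, 0.015) and Nnt (-0.88, 0.0245). Ncf1, the targeted gene of p47phox-/-, differed by 2.04 (adjusted p = 3.42e-06).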

How the results depend on the processing

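The number of scavenging enzymes called was 0 in p47phox-/- against WT and in the mean of both knockouts against WT under every alternative that gave a value. In gp91phox-/- against WT it went from 0 to 1 with the groups compared alone and without p47phox-/- replicates 2 and 3 together (Gpx4 in both; this alternative was chosen after seeing the data), and was 0 to 1 with single libraries left out. Between the knockouts it went from 1 to 0 with no filter, the groups compared alone, the replicate block, or no mean-variance trend, and likewise without p47phox-/- replicates 2 and 3 together; to 2 (Sod2 and Prdx5) with TMM scaling, edgeR or DESeq2; and was 0 to 2 with single libraries left out, where the 1 called without p47phox-/- replicate 2 was Prdx5.

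Among all genes, the counts called (162, 1016, 1430 and 452 in p47phox-/- against WT, gp91phox-/- against WT, between the knockouts and in the mean of both) became 52, 596, 898 and 186 with no mean-variance trend and 678, 1754, 2276 and 1012 with DESeq2. With single libraries left out they ranged from 47 to 235, 520 to 1543, 761 to 1661 and 173 to 619. With the groups compared alone the first was 101, and without p47phox-/- replicates 2 and 3 together the first, the third and the last were 16, 441 and 238.

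Of the 46 wider genes, DESeq2 called 2, 8, 7 and 5 in the 4 comparisons, where limma called 0, 4, 7 and 1.

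Signs turned for values near 0. In p47phox-/- against WT quantile normalization gave 0.000218 for Sod1 and -0.0353 for Txnrd1, and leaving out p47phox-/- replicates 2 and 3 together gave -0.0156 for Prdx1 and -0.129 for Txn1. With single libraries left out, Sod1 ranged from -0.217 to 0.135, Txn1 from -0.136 to 0.120 and Txnrd1 from -0.0318 to 0.134. In gp91phox-/- against WT Prdx1 was 0.00343 with TMM, 0.00987 with edgeR and 0.00197 with DESeq2. With single libraries left out, Prdx1 ranged from -0.0998 to 0.0823, Txn1 from -0.0420 to 0.328 and Nnt from -0.442 to 0.00691. The Prdx5 to Prdx1 ratio difference ranged from -0.0394 to 0.204. The cause of these changes was not tested, except that fits with fewer libraries have fewer samples.

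The replicate numbers did not pair the libraries. With the block, Sod2 between the knockouts had an adjusted p of 0.058, and 127, 877, 1238 and 371 genes were called in all. Of the values for single enzymes, 418 kept their direction and side of the threshold, 9 gained a call, 12 lost one and 16 turned sign. Of those for other named genes, 261 kept both, 41 lost a call and 1 turned sign. With 3 libraries a group, an enzyme's interval spans about 0.38 on either side on the log2 scale.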
